A study of Mus musculus with 20 samples.

Results

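The transcripts of 10 checkpoint and co-stimulatory receptors, *Pdcd1*, *Tnfrsf9*, *Tnfrsf4*, *Tnfrsf18*, *Cd27*, *Cd28*, *Icos*, *Ctla4*, *Lag3* and *Cd5*, were followed in single thymic precursors of intraepithelial lymphocytes (IELPs). The members were chosen by name, and all 10 were present among the 25042 genes with a transcript in the cells used. IELPs are CD4-CD8-TCRβ+ thymocytes that give rise to a T cell population of the gut epithelium, and they were enriched from mouse thymus by depleting CD4+ and CD8+ cells with beads. The study's methods describe them as NK1.1-, while its design text gives NK1.1+. All mice carried TBGR, a ZsGreen reporter of the transcription factor T-bet. A TBGR mouse of 4 weeks with wild type *C-myc* gave 4 sorted populations in 8 libraries. Cells without T-bet were sorted as CD122-T-bet- or as CD122+T-bet-, and CD122+ cells with T-bet as T-bet int or, at the upper reporter level, as T-bet high. A TBGR C-myc fl/fl mouse of 2 weeks gave the same populations, also in 8 libraries. Its floxed *C-myc* alleles were intact because it carried no Cre. A TBGR C-myc D/D Cd4 mouse of 2 weeks, in which a Cre under *Cd4* control deleted the floxed alleles, gave only both T-bet- populations, in 4 libraries. Each library held 96 sorted cells. In the C-myc fl/fl mouse both T-bet- populations shared 4 libraries, with 48 cells of each, and the T-bet int and T-bet high populations shared the other 4. In the TBGR and C-myc D/D Cd4 mice each population had 2 libraries of its own. Differences between populations of these mice cannot be told apart from differences between libraries.

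These receptors tune how strongly a T cell responds to its antigen receptor. PD-1, CTLA-4 and LAG-3, encoded by *Pdcd1*, *Ctla4* and *Lag3*, restrain the response, and CD5, whose surface level follows the strength of antigen receptor signals in thymocytes, also dampens it. CD28 and ICOS add a costimulatory signal through phosphoinositide 3-kinase. OX40, 4-1BB, GITR and CD27, encoded by *Tnfrsf4*, *Tnfrsf9*, *Tnfrsf18* and *Cd27*, belong to the tumour necrosis factor receptor family and signal through TRAF adaptors to NF-kB. Strong antigen receptor signals in the thymus induce several of these genes in agonist-selected cells, the developmental route that IELPs share with regulatory T cells and NKT cells.

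Of 1920 sorted cells, 1413 had at least 2000 transcripts without mitochondrial genes and spike-ins and were used. They numbered 112 to 186 per population, with medians of 4239 to 7074 transcripts per cell and sums of 699596 to 1468961 transcripts. There was 1 mouse per genotype, so libraries were technical and no difference between populations or genotypes could be tested. Differences in age, mouse and library between TBGR and C-myc fl/fl cells cannot be told apart from genotype, and the same holds for mouse and library between C-myc D/D Cd4 and C-myc fl/fl cells. Levels are given as transcripts per 1000000 transcripts of the same cells (CPM) with exact 95% Poisson intervals, and shares of cells with exact binomial intervals. These cover counting error only, and neither amplification nor differences between mice. The CD122 gate was seen in the transcripts, and *Tbx21* ranges rose with the T-bet gates but overlapped between neighbouring gates. *Cd4* transcripts were found although the cells were sorted as CD4-. In CD122-T-bet- libraries they were in 95.4% and 93.1% of TBGR cells, at 680 and 493 CPM. The shares were 19.2% to 46.4% in C-myc fl/fl and 12.9% to 15.5% in C-myc D/D Cd4 libraries of that gate. *Il2rb*, which encodes CD122, stood at 0 to 19.4 CPM in CD122- libraries and at 146 to 554 CPM in CD122+ libraries, and *Tbx21*, which encodes T-bet, at 0 to 13.4 CPM in T-bet- libraries, 12.4 to 55.3 CPM in T-bet int and 25.0 to 214 CPM in T-bet high. The targeted gene, *Myc*, was read at 44.5 and 9.96 CPM in the 2 C-myc D/D Cd4 CD122+T-bet- libraries and at 10.6 to 135 CPM in the 4 C-myc fl/fl libraries of that population, so these ranges overlapped. The exons removed are not given in the sources used here, and 3′ counts outside them would not check the deletion.

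In what follows a gene was called higher or lower in a comparison when its populations held at least 20 transcripts together, its log2 ratio of CPM was at least 1 in size and the libraries of both populations did not overlap. A ratio without such a call is given as a value. On barcodes that held no cell, 1920 in all with a median of 17.5 transcripts, the members had 0 (*Lag3*) to 15 (*Icos*) transcripts.

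The members lie on 4 chromosomes of GRCm38. *Cd28* (chr1:60716800-60773359), *Ctla4* (chr1:60887000-60915832) and *Icos* (chr1:60977927-61000320) follow each other on the plus strand, and *Pdcd1* (chr1:94038305-94052553, minus strand) is on the same chromosome. *Tnfrsf4* (chr4:156013843-156016612) and *Tnfrsf18* (chr4:156026164-156028895) are neighbours on the plus strand, 9551 bases apart, and *Tnfrsf9* (chr4:150914562-150946102, plus strand) lies upstream of them. *Lag3* (chr6:124904361-124911705, minus strand) is next to *Cd4*, 16139 bases away, and *Cd27* (chr6:125232622-125237010, minus strand) and *Cd5* (chr19:10717116-10739002, minus strand) complete the group. Of *Tnfrsf9* 91.2% overlaps *Camta1* and all of *Cd27* overlaps *Vamp1*, each on the opposite strand, and only sense reads were counted.

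RefSeq promoter entries (GRCm38.p6) were matched for 7 of the 10 members. The 250 bases before each start were searched on both strands for CACGTG, the E-box core that MYC can bind, for TGANTCA, an AP-1 motif, for AAAGGTCA, a motif of the NR4A receptors, and for the NF-kB motif. These occurred in 6.04%, 6.73%, 1.35% and 7.28% of 32536 distinct promoters of that length. The stretches below are shown because *Pdcd1*, *Tnfrsf9* and *Tnfrsf18* were the members with higher calls in CD122+T-bet- C-myc D/D Cd4 cells, and *Tnfrsf4* is the neighbour of *Tnfrsf18*, with too few transcripts there for a call. Motif letters are in capitals, and bases inside annotated exons are left out except for the 30 bases of *Tnfrsf9*.
Pdcd1, chr1:94052554-94052803, minus strand, directly before the start: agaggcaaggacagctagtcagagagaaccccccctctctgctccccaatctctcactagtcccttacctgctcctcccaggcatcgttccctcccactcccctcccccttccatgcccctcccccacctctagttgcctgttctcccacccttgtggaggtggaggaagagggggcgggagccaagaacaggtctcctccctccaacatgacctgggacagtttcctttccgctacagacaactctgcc
Tnfrsf9, chr4:150927946-150927975, plus strand, before the start at 150927999: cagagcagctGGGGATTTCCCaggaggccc
Tnfrsf18, chr4:156026072-156026163, plus strand, before the start at 156026322: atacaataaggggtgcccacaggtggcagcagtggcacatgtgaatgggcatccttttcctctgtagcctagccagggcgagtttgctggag
Tnfrsf4, chr4:156013611-156013694, plus strand, directly before the start: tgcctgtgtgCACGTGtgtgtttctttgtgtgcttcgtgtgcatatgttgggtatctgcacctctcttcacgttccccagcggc
The NF-kB letters of *Tnfrsf9* began 43 bases before this start, in overlapping matches, and TGAGTCA began 15 bases before it. The other *Tnfrsf9* entry, with its start at 150920155, held none of these motifs, nor did the entries of *Pdcd1*, *Tnfrsf18*, *Cd27*, *Cd5* and *Ctla4*. The E-box of *Tnfrsf4* began 74 bases before its start. A match describes letters in these windows and no binding was measured.

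*Pdcd1* peaked at the CD122+T-bet- stage in the TBGR mouse and was nearly undetected in T-bet high cells. Its level was 80.6 and 50.3 CPM in the 2 CD122-T-bet- libraries, 245 and 254 CPM in CD122+T-bet-, 124 and 94.9 CPM in T-bet int, and 6.36 and 12.9 CPM in T-bet high. No library of a population overlapped one of the next. The log2 ratio was 1.92 (interval 1.55 to 2.34) at the gain of CD122, -1.18 from there to T-bet int and -3.58 (-5.16 to -2.53) from T-bet int to T-bet high, and *Pdcd1* was called at all 3 steps. Without T-bet high library 1 the last ratio was -2.88. Without T-bet int library 2 the middle ratio became -0.997, just short of a call.

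In the C-myc fl/fl mouse *Pdcd1* read 58.2, 27.9, 44.5 and 18.3 CPM in the 4 CD122-T-bet- libraries, 148, 111, 253 and 95.5 CPM in CD122+T-bet-, 172, 127, 131 and 57.0 CPM in T-bet int and 25.2, 10.02, 22.0 and 8.34 CPM in T-bet high. The first and last steps were called, with log2 ratios of 2.06 (1.49 to 2.69) and -2.84 (-3.88 to -2.02), and the libraries of the middle step overlapped, at -0.34 (-0.73 to 0.04). Both called steps compare cells that shared libraries, and within each of the 4 libraries the ratio had the same sign, 1.31 to 2.45 at the first and -3.36 to -2.26 at the last. Thinned to 2000 transcripts per cell, the first step was 1.03 and lost its call because the libraries overlapped.

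In C-myc D/D Cd4 cells *Pdcd1* read 46.8 and 57.9 CPM before and 270.0 and 271 CPM after the gain of CD122, a log2 ratio of 2.32 (1.85 to 2.86). Its level in CD122+T-bet- cells, 271 CPM (234 to 312), was 1.68 times the 161 CPM of C-myc fl/fl cells, and the libraries did not overlap. This log2 ratio, 0.75 (0.42 to 1.09), was below the size of a call. Its level therefore rose with CD122 in each of the 3 mice, including the mouse with *C-myc* deletion.

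**Figure D1:**
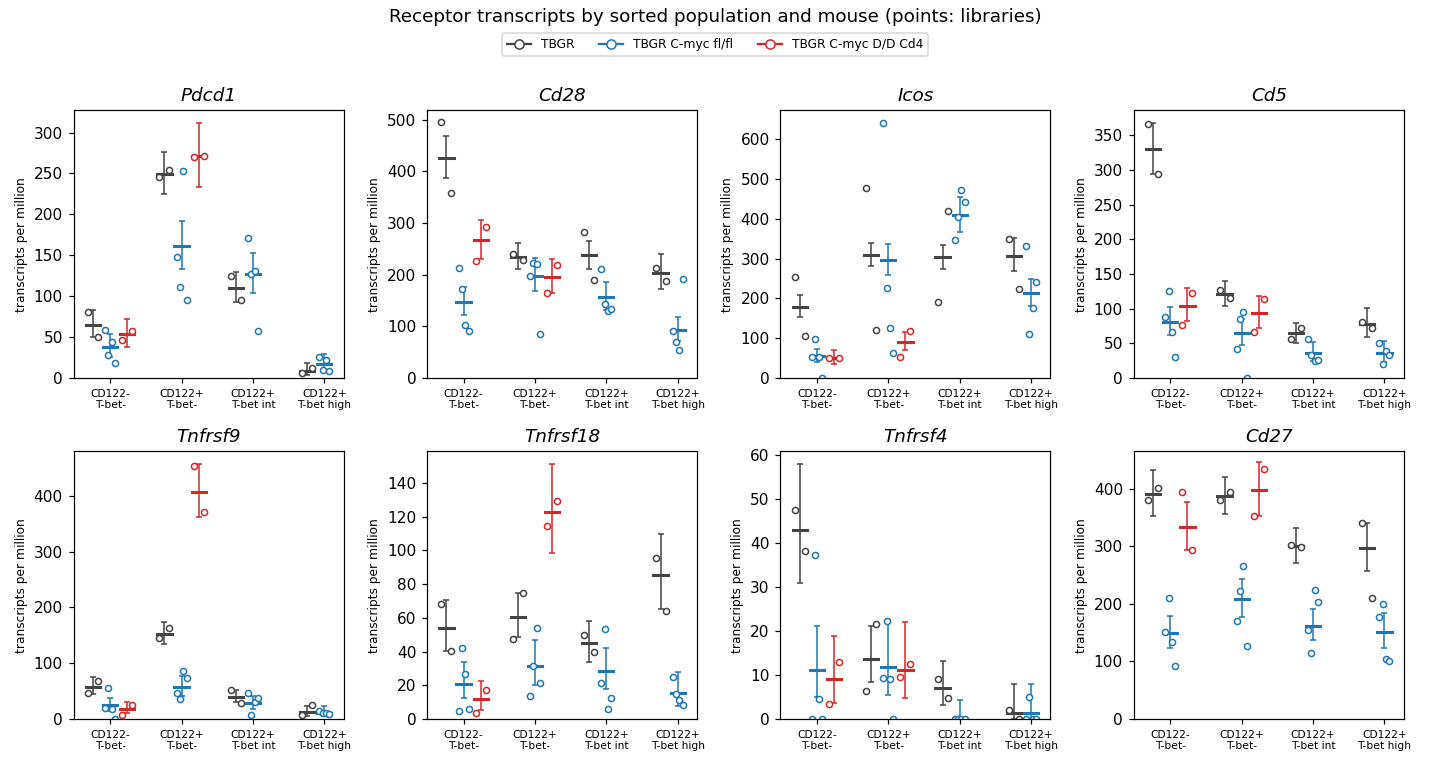
Level in CPM (y axis) of 8 of the receptors in each sorted population (x axis). Open points are libraries, bars are the summed level of the population and whiskers its 95% Poisson interval. Tnfrsf9 and Tnfrsf18 in CD122+T-bet- cells of the C-myc D/D Cd4 mouse (red) stand at 407 and 123, above every C-myc fl/fl library (blue) of that population, and Pdcd1 stands at 8.51 in TBGR T-bet high cells.

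*Tnfrsf9*, encoding 4-1BB, an activation-induced receptor, followed *Pdcd1* in the TBGR mouse and departed from it in the C-myc D/D Cd4 mouse. In TBGR libraries it was at 47.5 and 68.5 CPM in CD122-T-bet- cells, 144 and 163 CPM in CD122+T-bet-, 51.5 and 28.5 CPM in T-bet int and 6.36 and 25.7 CPM in T-bet high. It was called higher at the first step, with a log2 ratio of 1.39 (0.97 to 1.84), and lower at the next steps, with -1.92 (-2.39 to -1.49) and -1.59 (-2.86 to -0.62). The last call rested on 9 and 52 transcripts and was lost on thinning, when cells were weighed equally, and without T-bet high library 1 (-0.54), and the ratio was -2.45 without T-bet high library 2.

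C-myc fl/fl cells held fewer *Tnfrsf9* transcripts and no step was called. Their libraries read 19.4, 55.8, 17.8 and 0 CPM in CD122-T-bet- cells, 46.1, 35.6, 85.7 and 74.3 CPM in CD122+T-bet-, 47.2, 6.70, 31.1 and 38.0 CPM in T-bet int, and 15.1, 10.02, 11.01 and 8.34 CPM in T-bet high. The log2 ratios of 1.22, -1.03 and -1.25 had the signs of the TBGR mouse, but the libraries overlapped at each step.

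In C-myc D/D Cd4 cells *Tnfrsf9* went from 6.69 and 25.7 CPM in CD122-T-bet- libraries to 454 and 371 CPM in CD122+T-bet- libraries, a log2 ratio of 4.43 (3.71 to 5.37). The CD122-T-bet- libraries held few transcripts, and the ratio was 3.93 without library 1 and 5.61 without library 2 of that population. The summed level of 407 CPM (362 to 457) was 6.95-fold that of C-myc fl/fl CD122+T-bet- cells, 58.1 CPM (42.2 to 78.0), a log2 ratio of 2.80 (2.35 to 3.30). Every C-myc D/D Cd4 library was above every C-myc fl/fl library. This call held under all 22 alternatives tried, and the ratio within C-myc D/D Cd4 cells under all 20. In CD122-T-bet- cells the genotypes overlapped, with 18.3 against 24.7 CPM.

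The difference was spread over many cells. After thinning each cell to 2000 transcripts, 41.6% (33.3 to 50.3) of the 137 C-myc D/D Cd4 CD122+T-bet- cells had a *Tnfrsf9* transcript, against 12.3% (7.05 to 19.5) of the 122 C-myc fl/fl cells and 24.7% (18.7 to 31.6) of the 186 TBGR cells. The unthinned shares were 63.5%, 21.3% and 48.4%. No cell of the C-myc D/D Cd4 population held more than 12 transcripts, and its top 5 cells held 16.4% of them.

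*Tnfrsf18*, encoding GITR, a receptor of regulatory and activated T cells, was the other member called higher in C-myc D/D Cd4 than in C-myc fl/fl CD122+T-bet- cells. Its C-myc D/D Cd4 libraries read 3.35 and 17.1 CPM in CD122-T-bet- cells and 114 and 129 CPM in CD122+T-bet-, a log2 ratio of 3.31 (2.39 to 4.56). It was 2.76 without CD122-T-bet- library 1 and 4.62 without library 2. The C-myc fl/fl CD122+T-bet- libraries stood at 13.8, 31.2, 54.1 and 21.2 CPM. The log2 ratio between the genotypes was 1.93 (1.29 to 2.67), a 3.82-fold difference resting on 88 and 24 transcripts, and it was also kept under all 22 alternatives.

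In the TBGR mouse *Tnfrsf18* did not share the pattern of *Tnfrsf9*. It was read at 68.2 and 40.3 CPM in CD122-T-bet- cells, 47.7 and 75.0 CPM in CD122+T-bet-, 50.002 and 39.5 CPM in T-bet int and 95.5 and 64.3 CPM in T-bet high. The libraries overlapped at the first steps, and those of T-bet high were above those of T-bet int by a log2 ratio of 0.92 (0.38 to 1.47), short of a call. In C-myc fl/fl cells T-bet high was at the low end instead, with 25.2, 15.0, 11.01 and 8.34 CPM against 21.4, 53.6, 6.22 and 12.7 CPM in T-bet int, and these overlapped.

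*Tnfrsf4*, encoding OX40, was rare, with 106 transcripts in all cells. It was called lower at the first TBGR step, from 47.5 and 38.3 CPM to 6.45 and 21.6 CPM, a log2 ratio of -1.64 (-2.50 to -0.85). Of the 42 transcripts before this step, the top 5 cells held 61.9%, and without CD122+T-bet- library 1 the ratio was -0.96 and not called, while without library 2 it was -2.61. In CD122+T-bet- cells it read 9.53 and 12.4 CPM in the C-myc D/D Cd4 libraries and 9.22, 22.3, 9.02 and 0 CPM in C-myc fl/fl. These were 8 and 9 transcripts, under the minimum for a call, and the interval of the log2 ratio, -1.66 to 1.46, was wide. No transcript was counted in C-myc fl/fl T-bet int cells, which allows up to 3.53 CPM at a floor of 3 transcripts.

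*Cd27*, which supports survival of early T cells, was broadly expressed and moved little between populations of a mouse. In TBGR libraries it was at 380.4 and 401 CPM in CD122-T-bet- cells, 381 and 394 CPM in CD122+T-bet-, 302 and 299 CPM in T-bet int, and 339 and 209.9 CPM in T-bet high. None of these steps was called, and the largest log2 ratio was -0.36 at the gain of T-bet. In C-myc fl/fl cells its populations ranged from 149 to 209 CPM and overlapped at every step.

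Between the genotypes of the same age *Cd27* was higher in C-myc D/D Cd4 cells at both stages. CD122-T-bet- libraries read 395 and 294 CPM against 150.3, 209, 133 and 91.5 CPM, a called log2 ratio of 1.15 (0.84 to 1.48), and CD122+T-bet- libraries read 353 and 433 CPM against 171, 223, 266 and 127 CPM, a log2 ratio of 0.93 (0.65 to 1.22) that was not called. The first value changes with scaling, since the median gene was itself higher by 0.45 in C-myc D/D Cd4 CD122-T-bet- cells. Relative to that median *Cd27* differed by 0.70 and was not called, nor was it without C-myc D/D Cd4 CD122-T-bet- library 1 (0.97).

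*Cd28*, the main costimulatory receptor of naive T cells, was highest before CD122 in the TBGR mouse. It was read at 496 and 358 CPM in CD122-T-bet- libraries, 239.9 and 229 CPM in CD122+T-bet-, 283 and 189.7 CPM in T-bet int and 212 and 188 CPM in T-bet high. The first step separated the libraries with a log2 ratio of -0.86 (-1.07 to -0.65), below the size of a call, and later steps overlapped. In C-myc fl/fl cells the first ratio was 0.43 and relative to the median gene -0.12, so its sign depended on the scaling. In C-myc D/D Cd4 cells it was -0.45 (-0.77 to -0.13), with 227 and 291 CPM before and 165 and 219 CPM after. Between the genotypes it differed by 0.86 (0.53 to 1.20) in CD122-T-bet- cells, without overlap of the libraries, and by -0.02 (-0.36 to 0.32) in CD122+T-bet- cells.

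*Cd5* fell with CD122 in the TBGR mouse and showed no such call in the others. Its TBGR libraries stood at 366 and 294 CPM in CD122-T-bet- cells, 126 and 115 CPM in CD122+T-bet-, 56.1 and 72.7 CPM in T-bet int and 80.6 and 72.8 CPM in T-bet high. The log2 ratio of -1.44 (-1.72 to -1.17) at the first step was called under all 20 alternatives, and the next, -0.91 (-1.31 to -0.53), separated the libraries without a call. In C-myc fl/fl CD122-T-bet- cells it was already at 87.3, 126, 66.7 and 30.5 CPM, and at 41.5, 84.6, 94.7 and 0 CPM in CD122+T-bet-, which overlapped. C-myc D/D Cd4 libraries read 76.9 and 122 CPM and then 66.7 and 115 CPM, which overlapped too.

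*Icos*, an inducible costimulatory receptor, varied widely between libraries. Its TBGR libraries read 254 and 107 CPM in CD122-T-bet- cells, 479 and 119.6 CPM in CD122+T-bet-, 191 and 421 CPM in T-bet int and 350.0 and 223 CPM in T-bet high, so libraries of 1 population differed up to 4-fold. In C-myc fl/fl cells the CD122-T-bet- libraries were at 53.3, 97.7, 53.4 and 0 CPM, the CD122+T-bet- libraries at 641, 227, 126 and 63.6 CPM, T-bet int at 347, 405, 473 and 443 CPM, and T-bet high at 333, 110.3, 176 and 242 CPM. At the gain of CD122 the summed log2 ratio was 2.43 (1.97 to 2.95), the largest of the members tested at this step. *Icos* was higher in CD122+T-bet- cells within each of the 4 shared libraries, by 3.53, 1.20, 1.21 and 4.50, and it was not called because CD122+T-bet- library 4, at 63.6 CPM, was below CD122-T-bet- library 2, at 97.7 CPM. Without library 1 the summed ratio was 1.51, and without library 2 it was 3.04. T-bet int was above T-bet high in all of these libraries, with a log2 ratio of -0.94 (-1.23 to -0.66) from the former to the latter, short of a call. In C-myc D/D Cd4 cells *Icos* was low at both stages, with 50.2 and 51.4 CPM before and 54.0 and 119 CPM after CD122. Its log2 ratio to C-myc fl/fl CD122+T-bet- cells was -1.70 (-2.13 to -1.30), but the libraries overlapped. It became -0.79 without C-myc fl/fl library 1 and -2.41 without C-myc D/D Cd4 CD122+T-bet- library 2.

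Cells with 10 or more *Icos* transcripts numbered 52 of 1413 and held 1043 of 2108 *Icos* transcripts, or 49.5%. Of these 52 cells, 30 had a transcript of *Zbtb16*, which encodes PLZF, the transcription factor of NKT and other innate-like T cells, against 105 of the other 1361 cells (57.7% and 7.71%). The first group was deeper, with medians of 9701 and 5361 transcripts. Thinned to 2000 transcripts, 6 of 58 cells with at least 3 *Icos* transcripts had *Zbtb16*, against 52 of 1355 (10.3% and 3.84%). The limit of 10 transcripts was applied without thinning, and the C-myc D/D Cd4 populations had medians of 4239 and 4921 transcripts. No cell with 10 or more *Icos* transcripts had *Foxp3*. None was a C-myc D/D Cd4 cell, and none was a C-myc fl/fl CD122-T-bet- cell.

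Setting these cells aside moved the library values. TBGR CD122+T-bet- libraries 1 and 2, which held 10 and 2 of them, went from 479 and 119.6 CPM to 155 and 69.3 CPM. C-myc fl/fl CD122+T-bet- library 1, with 5 of them, went from 641 to 131 CPM. The 4 C-myc fl/fl T-bet int libraries, at 347 to 473 CPM with them, ranged from 25.8 to 236 CPM without them. Differences of *Icos* between libraries and populations therefore rested in part on few cells, and at the first TBGR step its log2 ratio of 0.78 went to -0.58 without CD122+T-bet- library 1.

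**Figure D2:**
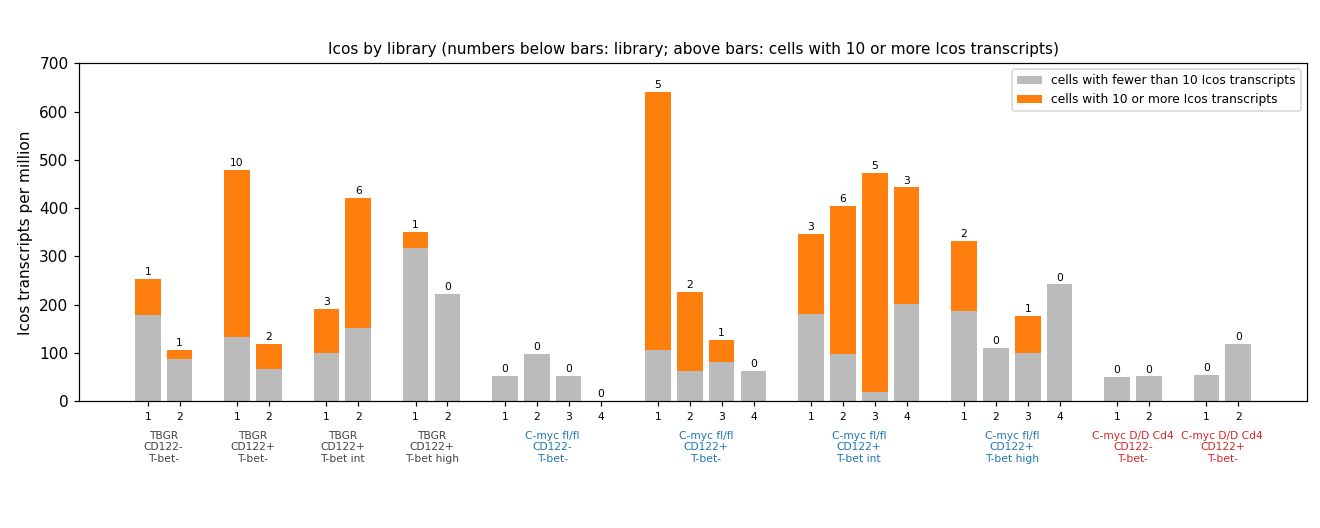
Icos level in CPM (y axis) in each library (x axis), split into the part from cells with 10 or more Icos transcripts (orange) and from the remaining cells (grey), both over all transcripts of the library. Numbers above bars count the cells with 10 or more, which were 10 and 2 in the 2 TBGR CD122+T-bet- libraries. They were 0 in every C-myc D/D Cd4 library and in every C-myc fl/fl CD122-T-bet- library.

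*Ctla4* and *Lag3*, the other inhibitory receptors of the group, were close to the limit of detection. *Ctla4* had 56 transcripts in all cells and its highest population, C-myc D/D Cd4 CD122+T-bet-, had 15 transcripts in libraries of 9.53 and 29.9 CPM. The other 9 populations were at 0 to 8.85 CPM, and C-myc fl/fl cells with T-bet held none, int or high, which allows up to 3.53 and 4.29 CPM at the same floor. The step within C-myc D/D Cd4 cells, from 2 to 15 transcripts, was under the minimum for a call. *Lag3* had 4 transcripts in 1413 cells, at most 1 in a population, so no pattern could be read at this depth.

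Counted over the group, 4 of the 9 members with enough transcripts were called at the first TBGR step, *Pdcd1* and *Tnfrsf9* higher and *Tnfrsf4* and *Cd5* lower, while 18.2% of 9262 genes were called there, 14.3% higher and 3.92% lower. At the second step 2 of 8 were called, both lower, beside 10.4% of genes (3.49% higher and 6.94% lower). At the third 2 of 7 were called, both lower, beside 19.6% of genes (7.93% higher and 11.7% lower). In the C-myc fl/fl mouse, which also differed in age and had more and smaller libraries per population, calls were fewer. The cause of this was not tested. At the gain of CD122 1 of 7 members, *Pdcd1*, was called beside 6.32% of genes (5.39% higher and 0.928% lower), at the gain of T-bet 0 of 7 beside 1.07% (0.562% higher and 0.506% lower), and from T-bet int to T-bet high 1 of 7, *Pdcd1* again, beside 3.94% (1.36% higher and 2.58% lower). The median of genes with at least 100 transcripts was itself shifted at several steps, by 0.28 and -0.13 on the log2 scale at the first and last TBGR steps and by 0.55 and -0.18 at those of the C-myc fl/fl mouse. Relative to it, the first TBGR step was 1.64 for *Pdcd1*, 1.11 for *Tnfrsf9*, -1.91 for *Tnfrsf4*, -1.72 for *Cd5* and -1.14 for *Cd28*, which would then pass the size of a call. The first C-myc fl/fl step was 1.51 for *Pdcd1* and 0.67 for *Tnfrsf9*.

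Within C-myc D/D Cd4 cells 3 of 7 members were called, all higher, beside 21.2% of 7425 genes (13.4% higher and 7.84% lower), and the median log2 ratio was 0.82 for these members and 0.13 for all genes. Between the genotypes 1 of 7 members was called in CD122-T-bet- cells, beside 13.9% of genes (12.9% higher and 1% lower), and 2 of 8 in CD122+T-bet- cells, beside 19.6% (13.5% higher and 6.13% lower). For the latter the medians were 0.84 and 0.18. A member passes the minimum of 20 transcripts more easily where it is high in at least 1 of the populations, and comparisons that share a population share its cells. The ratios of *Tnfrsf9* and *Tnfrsf18* were the largest among the members tested within C-myc D/D Cd4 cells and between the genotypes at the CD122+T-bet- stage.

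**Figure D3:**
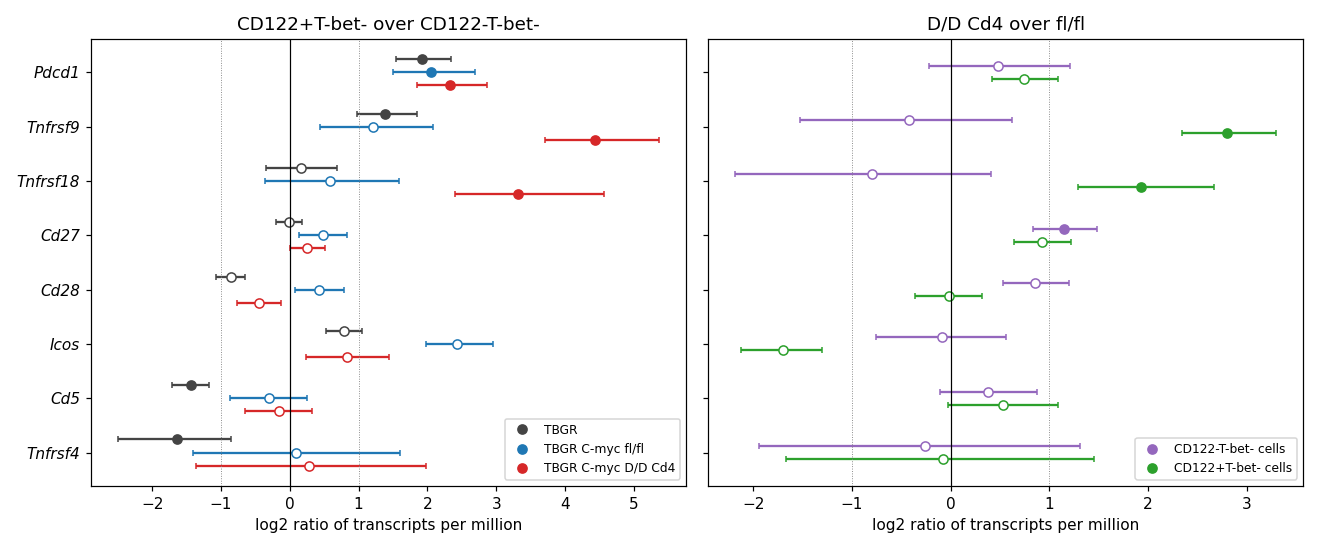
Log2 ratio of CPM (x axis) of 8 receptors for CD122+T-bet- cells relative to CD122-T-bet- cells of each mouse (left) and for C-myc D/D Cd4 over C-myc fl/fl cells at each stage (right). Whiskers are 95% counting intervals, filled points are calls, open points are not, and dotted lines mark a log2 ratio of 1 in size. Pdcd1 lies at 1.92, 2.06 and 2.32 in the 3 mice on the left, while Tnfrsf9 and Tnfrsf18 lie at 2.80 and 1.93 in CD122+T-bet- cells on the right.

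Detection per cell was read from the thinned cells. *Pdcd1* was seen in 8.62%, 31.7%, 17.0% and 2.04% of the 4 TBGR populations in the order of their gates, in 12 of 120 cells, 23.0%, 24.1% and 2.68% of those of the C-myc fl/fl mouse, and in 11.7% and 35.8% of the C-myc D/D Cd4 populations. *Tnfrsf18* was seen in 19.7% (13.4 to 27.4) of C-myc D/D Cd4 CD122+T-bet- cells and in 5.74% (2.34 to 11.5) of C-myc fl/fl cells, with 39.4% and 13.9% before thinning. *Cd27* was seen in 44.2% to 53.4% of TBGR populations, in 24.1% to 28.7% of C-myc fl/fl populations and in 44.5% and 53.3% of C-myc D/D Cd4 populations. The order of the shares differed from that of the levels in places. C-myc fl/fl T-bet int cells had a lower *Pdcd1* level than CD122+T-bet- cells, 127 against 161 CPM, and shares of 24.1% and 23.0%. For *Icos*, TBGR T-bet high cells had the highest share, 42.9% (34.7 to 51.3), against 17.2% to 23.4% in the other TBGR populations.

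**Figure D4:**
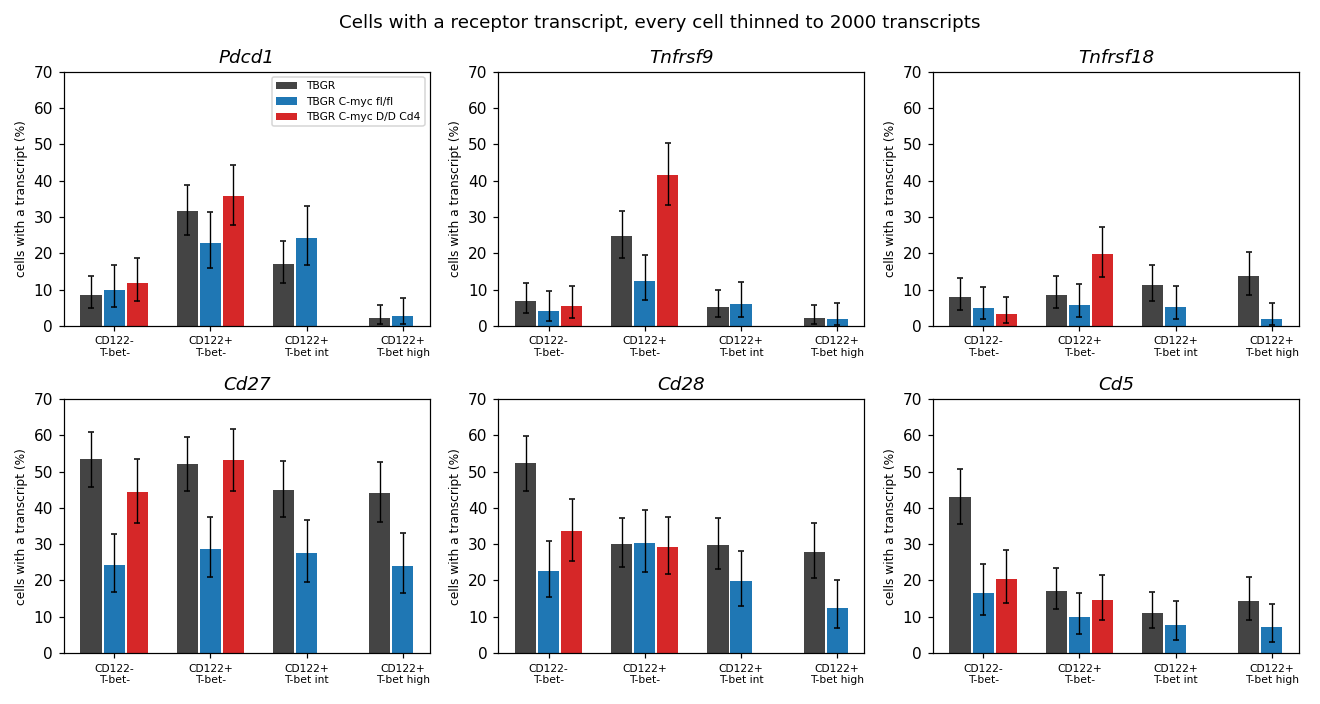
Share of cells with at least 1 transcript (y axis, percent) of 6 receptors after each cell was thinned to 2000 transcripts, by population (x axis) and mouse (bar colour), with exact 95% binomial intervals. Tnfrsf9 was seen in 41.6% of C-myc D/D Cd4 CD122+T-bet- cells against 12.3% of C-myc fl/fl cells, and Pdcd1 in 2.04% and 2.68% of T-bet high cells.

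Several members were often seen in the same cell. After thinning, 39.4% of C-myc D/D Cd4 CD122+T-bet- cells showed 3 or more of the 10 receptors, against 13.9% of C-myc fl/fl and 29.0% of TBGR cells of this gate. The lowest share was 3.57%, in C-myc fl/fl T-bet high cells, of which 45.5% showed none. In the C-myc D/D Cd4 population *Tnfrsf9* was seen in 24 of 49 cells with *Pdcd1* and in 33 of 88 cells without it, 49.0% (34.4 to 63.7) and 37.5% (27.4 to 48.5). *Tnfrsf18* was seen in 13 of 57 cells with *Tnfrsf9* and in 14 of 80 without. These intervals overlapped. *Icos* was seen in 12 of 49 cells with *Pdcd1*, 24.5% (13.3 to 38.9), and in 6 of 88 without, 6.82% (2.54 to 14.3). These intervals overlapped narrowly. Before thinning *Icos* was seen in 23 of 77 and 11 of 60 of these cells, and the intervals overlapped too. After thinning, TBGR cells of this gate had the reverse order, 11 of 59 cells with *Pdcd1* and 32 of 127 without. For C-myc fl/fl cells of this gate the numbers were 7 of 28 and 15 of 94. In counts this sparse such pairs are a description.

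Markers of other cell types moved with some of these levels. Cells with a *Foxp3* transcript, the defining factor of regulatory T cells, made up 42 of 186 TBGR CD122+T-bet- cells, 11 of 94 in library 1 and 31 of 92 in library 2, and 6 of 122 and 6 of 137 in the C-myc fl/fl and C-myc D/D Cd4 populations of that gate. All 7 regulatory T cell markers were detected in each of these 3 populations, with summed levels of 361 to 431, 189 to 254 and 274 to 289 CPM across libraries. In TBGR CD122+T-bet- cells the *Foxp3* cells held 10 of 13 *Ctla4* transcripts, 36.0% of *Tnfrsf18*, 30.3% of *Pdcd1* and 26.2% of *Tnfrsf9*, and 7.49% of *Icos*. These shares are not set against the share of all transcripts in the *Foxp3* cells. Without these cells *Pdcd1* stood at 231 CPM and *Tnfrsf18* at 51.7 CPM, beside 249 and 60.6 CPM in all cells of the population. *Tnfrsf9* hardly moved, with 151 CPM beside 153 CPM. In TBGR CD122-T-bet- cells *Foxp3* was found in only 9 of 174 cells, while the summed level of the 7 markers was higher, at 715 to 1263 CPM across libraries. *Cd4*, a gene of this list, made up much of that sum, at 680 and 493 CPM in libraries 1 and 2. In TBGR CD122+T-bet- libraries it was at 63.2 and 56.2 CPM. Without *Foxp3* cells the first TBGR step was 1.80 for *Pdcd1*, 1.52 for *Tnfrsf9*, -1.66 for *Tnfrsf4* and -1.38 for *Cd5*, and *Cd28* reached the size of a call with -1.01. In C-myc D/D Cd4 and C-myc fl/fl CD122+T-bet- cells without *Foxp3*, *Tnfrsf9* was at 406 and 61.5 CPM, beside 407 and 58.1 CPM in all cells. *Tnfrsf18* was at 122 and 25.2 CPM, beside 123 and 31.7 CPM.

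*Trdc*, which encodes the constant region of the TCRδ chain, was found in 46.1% of C-myc D/D Cd4 and 24.2% of C-myc fl/fl CD122-T-bet- cells, and in 16.8% and 4.10% of their CD122+T-bet- cells. All 5 measured γδ T cell markers were detected in each, at 1048 and 1147 CPM in C-myc D/D Cd4 and 208 to 701 CPM in C-myc fl/fl CD122+T-bet- libraries. This sum did not always go with *Trdc*. In TBGR T-bet high libraries it was 981 to 1555 CPM, with *Trdc* at 0 CPM. Within C-myc D/D Cd4 CD122+T-bet- cells, those with *Trdc* had less *Tnfrsf9* and *Tnfrsf18*, 186 and 43.3 CPM against 472 and 146 CPM in those without, and a similar *Pdcd1* level of 259.8 and 274 CPM. The genotype ratios of *Tnfrsf9* and *Tnfrsf18* kept their calls without *Trdc* cells. Within C-myc D/D Cd4 CD122-T-bet- cells, *Cd27* was at 327 CPM with and 340 CPM without *Trdc*, in 59 and 69 cells.

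Other lists also differed between C-myc D/D Cd4 and C-myc fl/fl CD122+T-bet- libraries. All 5 B cell markers were detected in the former, with a sum of 15.9 and 202 CPM in libraries 1 and 2, against 9.02 to 32.3 CPM and 3 of 5 in the latter. *Tnfrsf9* was at 454 CPM in the library with the low sum and at 371 CPM in the other. Of 6 measured myeloid or dendritic markers 4 were detected, at 219 to 493 CPM, against 2 at 158 to 227 CPM, and *Itgax* and *Csf1r* were at 0 in both. Double positive thymocyte markers were at 118 to 124 CPM with 6 of 8 detected against 10.6 to 36.9 CPM with 5 of 8, and in CD122-T-bet- libraries at 686 to 826 CPM against 93.0 to 360 CPM with 8 of 8 in both. NKT cell markers were at 264 CPM in both libraries against 63.6 to 198 CPM, with 5 of 5 detected in each. *Zbtb16*, a gene of this list, went the other way, at 12.7 and 19.9 CPM against 26.7 to 59.9 CPM. The sum is therefore no measure of NKT cells here. At the first TBGR step the myeloid sum went from 93.0 and 242 CPM to 229 and 626 CPM, with 5 of 6 detected in both, the double positive sum from 112 and 179 CPM to 60.5 and 95.5 CPM and the NKT sum from 334 and 378 CPM to 226 and 241 CPM. *Zbtb16* was at 12.4 and 0 CPM before this step and at 37.4 and 8.65 CPM after it. The part of the B cell, myeloid, double positive and NKT markers in the receptor differences was not tested.

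The genes around these receptors were read from lists of their ligands, related receptors and signalling mediators. Of 16 tested TRAF and NF-kB mediators, 7 were called higher and none lower in C-myc D/D Cd4 over C-myc fl/fl CD122+T-bet- cells, with a median log2 ratio of 1.005 beside 0.18 for all genes, of which 13.5% were called higher. These included *Tnfaip3*, an inhibitor of NF-kB signalling, with 226 against 35.6 CPM (2.64), and *Nfkbie*, which retains NF-kB in the cytoplasm, with 37.7 against 6.60 CPM (2.40). Within C-myc D/D Cd4 cells 8 of 13 were called higher at the gain of CD122, with a median of 1.139 beside 0.13 and 13.4% of all genes, among them *Nfkb2*, an NF-kB subunit, at 79.5 against 13.1 CPM (2.55). At this step 1 of 19 was called higher in the TBGR mouse, where 14.3% of all genes were, and 0 of 12 in the C-myc fl/fl mouse, where 5.39% were. In CD122-T-bet- cells 3 of 13 were called higher and 1 lower in C-myc D/D Cd4 over C-myc fl/fl, beside 12.9% and 1% of all genes. *Tnfaip3* was among those higher already at this stage, at 108 against 21.0 CPM (2.34). *Nfkb2* was the 1 called lower, at 13.1 against 34.6 CPM (-1.36), and it was not called between the genotypes in CD122+T-bet- cells.

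Of 10 related receptors tested in C-myc D/D Cd4 CD122+T-bet- cells, 7 were called higher and none lower over C-myc fl/fl, with a median of 1.36, beside 13.5% of all genes called higher. Over C-myc D/D Cd4 CD122-T-bet- cells 5 of 10 were called higher and none lower, with a median of 0.94, beside 13.4% of all genes called higher. *Tnfrsf1b*, encoding TNF receptor 2, went from 2.61 to 145 CPM at that step (5.48), on 2 and 104 transcripts. *Cd200*, a ligand of an inhibitory receptor, went from 3.92 to 74.0 CPM (4.03), on 3 and 53 transcripts. At the gain of CD122 *Tnfrsf1b* was also called higher in the TBGR (1.51) and C-myc fl/fl (1.52) mice, and *Cd200* in the TBGR mouse (1.87). In the TBGR mouse 6 of 16 related receptors were called higher and 3 lower at the first step, beside 14.3% and 3.92% of all genes. At the gain of T-bet *Cd244*, a receptor of the SLAM family, went from 1.36 to 27.9 CPM (4.05), on 2 and 36 transcripts. Mediators of CD28 and CD5 signals had 6 of 25 called higher and 1 lower within C-myc D/D Cd4 cells, beside 13.4% and 7.84% of all genes. They included *Ubash3b* (24.8 to 389 CPM, 3.94) and *Ptpn22* (48.3 to 227 CPM, 2.22), phosphatases that dampen antigen receptor signals. Both were also called higher at the gain of CD122 in the TBGR (2.26 and 1.47) and C-myc fl/fl (3.03 and 1.39) mice. In C-myc D/D Cd4 over C-myc fl/fl CD122+T-bet- cells 5 of 24 mediators were called higher, beside 13.5% of all genes. *Pik3ip1*, an inhibitor of phosphoinositide 3-kinase, was among them, at 27.9 against 1.32 CPM on 20 and 1 transcripts. Few ligands were expressed, 3 of 12 with enough transcripts at the first step in each mouse. *Lgals3*, encoding galectin-3, was called higher there in all 3 mice, from 17.3 to 144 CPM (3.01) in TBGR, from 6.17 to 199 CPM (4.88) in C-myc fl/fl and from 7.84 to 128 CPM (3.93) in C-myc D/D Cd4 cells. *Cd274*, encoding PD-L1, was called lower in the TBGR mouse (27.5 to 12.9 CPM, -1.08).

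Genes whose level was most like that of a member were sought over the 28 sums of cells by library and population, by the Pearson correlation of log2(CPM + 10) over 5870 genes. These sums share mice, libraries and depth, so the values are a description. *Pdcd1* was nearest to *Nrgn* (r = 0.906), *Basp1* (0.888) and *Ssbp3* (0.883), and *Cd5* to *Cd6* (0.905), a receptor of the same family, *Rgs10* (0.859) and *Zfp281* (0.848). *Tnfrsf9* was nearest to *Gm37811* (0.886), *Eno3* (0.823) and *2310001H17Rik* (0.815), and *Tnfrsf18* to *Bcl2* (0.845), *Sdf4* (0.785), which is next to *Tnfrsf4* on chromosome 4, and *Arid5b* (0.785). *Cd27* was nearest to *Cd69* (0.887), *Tnrc6b* (0.882) and *Fos* (0.872), *Cd28* to *Mef2d* (0.835), *Ttc3* (0.822) and *Trbc1* (0.817), and *Icos* to *Msn* (0.859), *Ifi30* (0.857) and *Cdc37* (0.844). *Tnfrsf4*, *Ctla4* and *Lag3* had too few transcripts for this.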

How the data were processed

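Single IELPs were measured by CEL-Seq2, which counts the 3′ ends of transcripts with molecular identifiers of 6 bases. The authors demultiplexed reads with bcl2fastq 2.17.1.14 and aligned them with BWA 0.6.2-r126 to GENCODE VM9 transcripts, discarded reads with multiple loci, and converted identifiers to estimated transcript counts for drawing the same identifier again. The deposited values are these estimated counts, not normalized, and were rounded here. Cells with at least 2000 transcripts were summed by library and population and divided by all their transcripts. The smallest library sum sets the precision of its level, and intervals give it. Doublets were not called, since cells were sorted 1 per well. No cell had values identical to another, and well barcodes were the same in every library. Log2 ratios had 0.5 added to each sum. The calling rule was run on simulated Poisson sums for the genotype comparison of CD122+T-bet- cells only. These sums held no variation between libraries beyond counting, so they do not measure wrong calls in the real libraries. For shares of cells, each cell was thinned to 2000 transcripts. The members, gene lists and alternatives were chosen with earlier results of these data known, and the alternatives that leave out *Foxp3*, *Zbtb16* or *Trdc* cells, or the top cell, after seeing the data. All members were named, from each list the 3 called genes with the largest ratio, and for each member with 200 transcripts the 3 genes most like it. Python 3.11.15, numpy 2.4.6, scipy 1.17.1, pandas 2.3.3 and matplotlib 3.10.9 were used.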

Additional observations from a re-analysis of the deposited data

Results flagged for a closer look

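Among 24 groups of 4 libraries compared for an outlying library, where chance gives about 1 in 20, *Cd28* in C-myc fl/fl T-bet int library 1 stood apart at 210.2 CPM, with the other 3 libraries at 144, 131 and 133 CPM. Barcodes that held no cell, which no comparison used, carried member transcripts above the limit that a count of 0 allows. They held 7 of *Pdcd1*, 11 of *Cd27*, 13 of *Cd28*, 15 of *Icos* and 4 of *Cd5* over 1920 barcodes, beside 1086, 2611, 2026, 2108 and 956 in the 1413 cells.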

How the results depend on the processing

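Of 146 counts and shares under other settings, 127 stayed close to the reported value (counts within 1.5 times), 19 moved and none reversed, and of 1218 member ratios 1177 moved by less than the spread between libraries. In the TBGR mouse the count of 2 at the gain of T-bet became 4 with cells weighed equally, and that of 2 from T-bet int to T-bet high became 1 on thinning and with equal weights. In the C-myc fl/fl mouse the count at the gain of CD122 (1) became 2 with a higher minimum of transcripts per cell and 0 on thinning and with equal weights. The next count (0) became 1 without *Zbtb16* cells, on thinning and with equal weights, and the last (1) became 2 on thinning, with equal weights and at a log2 ratio of 0.5. For C-myc D/D Cd4 over C-myc fl/fl, the CD122-T-bet- count (1) became 2 under these 3 settings and 0 relative to the median gene, and the CD122+T-bet- count (2) became 4 at a log2 ratio of 0.5. Leaving out 1 library at a time, the counts ran from 3 to 5, 2 to 4 and 1 to 3 at the TBGR steps, 1 to 3, 0 to 1 and 1 to 2 at the C-myc fl/fl steps, 3 to 4 within C-myc D/D Cd4 cells, and 0 to 2 and 2 to 4 between the genotypes. The cause of these changes was not tested. Cells with at least 1 member transcript made up 77.4% after thinning and 92.4% before, and those with 3 or more members 20.6% and 54.5%. No paired analysis was possible because no difference was tested with 1 mouse per genotype, and replicate numbers given in accession order pair no samples. Where C-myc fl/fl populations shared libraries, ratios within each library were computed as descriptions and stand with *Pdcd1* and *Icos*. The limits are 1 mouse per genotype, small library sums, and differences in depth, age and library that go with genotype. In the TBGR and C-myc D/D Cd4 mice library also went with population.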
